A study of Mus musculus with 6 samples.

Results

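Pancreatic islets of male C57BL6 mice, 8 weeks old and kept on rodent chow in 12 h of light and 12 h of darkness, were compared between the light phase and the dark phase. The light phase was represented by the arrays at ZT0 (lights on), ZT4 and ZT8, and the dark phase by those at ZT12 (lights off), ZT16 and ZT20, with all 6 arrays of the series in use. ZT is the number of hours since lights on. Every array held RNA pooled from 3 to 5 mice and labelled with Cy3 on a 1-colour Agilent mouse array, so the 3 arrays of a phase are different hours and not replicates of one hour. Animals, pools, hybridisations and hours therefore vary together within a phase, and any p-value measures only the spread between these arrays. Values are log2 signals minus the 75th percentile of their array, written below as log2 units, so that 0 is the level of that percentile. Probes well above background on 3 or more arrays were kept, and each gene was read from its brightest kept probe, which left 24127 genes, 16804 of them with a gene symbol.

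Islet cells carry their own circadian clock. In its core loop the factors CLOCK and BMAL1, the product of Arntl, bind E-box sequences and switch on the genes of their own repressors, the Period and Cryptochrome proteins, and those of the nuclear receptors REV-ERB, which in turn repress Arntl. Dbp, Tef and Hlf are output factors of the same loop, and nocturnal mice eat mainly in the dark, so feeding-related programmes such as lipid synthesis, secretion and protein production differ between the phases in many tissues.

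Between 66.1 and 84.4% of spots were well above background on the light-phase arrays, and between 70.8 and 75.3% on the dark-phase arrays. The 75th percentile of the signal was 1976, 506 and 2090 at ZT0, ZT4 and ZT8 and ran from 1229 to 1657 on dark-phase arrays. The ZT0 array had 1743 spots marked as outliers by the scanner software, beside 166 to 247 on the other arrays, and was scanned on another date than they were. ZT8 and the 3 dark-phase arrays were read in 1 scan, whereas ZT0 and ZT4 each had a scan of their own, so scan and phase are partly confounded, and every result below that holds over all 9 pairs also holds between ZT8 and the dark-phase arrays of that scan. The tissue label was checked with Ins2 (insulin), at 6.94, 8.74 and 7.23 log2 units on light-phase arrays and 7.45, 7.60 and 7.50 on dark-phase arrays, and with Iapp (amylin), at 8.56, 8.13 and 7.05 against 6.91, 7.52 and 7.33. Both were far above the percentile on every array. Other cell types were present in unequal amounts. The summed level of 16 lymphocyte markers, in multiples of the 75th percentile, was 163, 700 and 156 at ZT0, ZT4 and ZT8, against 473, 36.5 and 21.8 at ZT12, ZT16 and ZT20, and all 16 were well above background on every array. In pooled tissue, fewer cells of a type and less RNA per cell cannot be told apart.

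The question was which genes and functions differed in the same direction in all 9 light-dark pairs, that is, in each of the 3 light-phase arrays against each of the 3 dark-phase arrays. All 9 pairs were higher in the light phase for 1065 genes (4.41% of those tested) and higher in the dark phase for 1063 genes (4.41%), together 8.82%. With limma and Benjamini-Hochberg adjustment over all genes, 0 genes (0%) passed an adjusted p of 0.05, and the smallest adjusted p was 0.957. At an unadjusted p under 0.05 limma gave 784 genes, 629 higher in light and 155 higher in dark. An exact permutation test of 3 arrays against 3 cannot give a p below 0.1, so the all-pairs count is a description and carries no test. The words higher and lower below refer to such counts, and the adjusted p of every gene named was 0.957 or above.

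**Figure D1:**
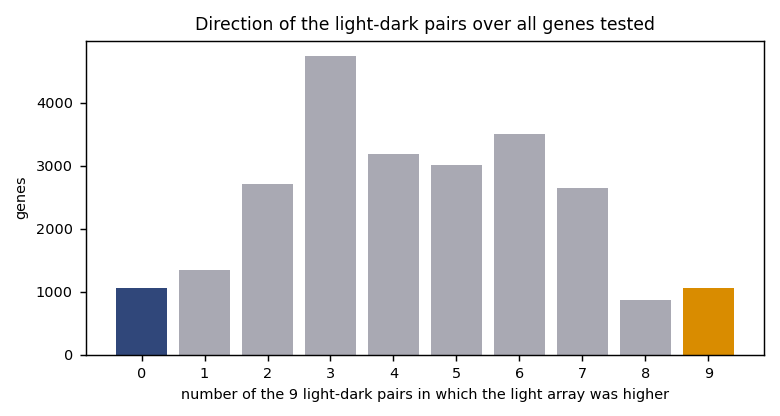
Number of genes (vertical axis) by how many of the 9 light-dark pairs had the higher value on the light-phase array (horizontal axis). The right bar holds the 1065 genes higher in light in all 9 pairs, the left bar the 1063 genes higher in dark in all 9, and the tallest bar the 4748 genes with 3 pairs higher in light.

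Of 26 core clock genes, 23 were measured, and 7 of these had all 9 pairs in one direction (30.4%, against 8.82% of all genes). Nr1d1, Dbp, Ciart and Tef were higher in light, and 3 genes, with Arntl and Cry1 among them, were higher in dark. None of the 7 passed limma after adjustment over all genes. Among dark-high genes with a symbol that were well above background on all 3 dark-phase arrays, Arntl had the widest gap between the phases, and Cry1 also ranked among the 12 widest.

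Nr1d1, the gene of REV-ERB alpha and thus of the repressor of Arntl, stood at -3.25, -3.25 and -1.71 log2 units at ZT0, ZT4 and ZT8, against -3.43, -6.14 and -5.81 at ZT12, ZT16 and ZT20. The last 2 of these were not well above background, and the ZT12 array lay only 0.17 below the lowest light-phase array. The mean difference, light minus dark, was 2.39 ± 0.84 (SE), a value that rests on those background readings. With quantile normalization, as in the authors' own values, Nr1d1 no longer had all 9 pairs in one direction.

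Dbp, a transcription factor driven directly by CLOCK and BMAL1, read 3.82, 4.05 and 3.83 in the light phase, against 3.55, 1.99 and 1.16 in the dark phase. Its light-phase arrays lay close together, while the dark-phase arrays were spread widely with ZT12 at the top. It averaged 3.90 ± 0.13 in light and 2.23 ± 1.21 in dark (SD, n = 3 arrays each), a 3.18-fold difference. A second probe for Dbp had 8 of the 9 pairs higher in light.

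Tef, a relative of Dbp in the PAR bZIP family, read 3.69, 4.03 and 3.65 in light, against 3.53, 3.34 and 2.50 in dark. It shared the order of the dark-phase arrays with Dbp, at a smaller difference of 0.67 ± 0.49 log2 units (SE). Ciart, a repressor of the CLOCK and BMAL1 pair, read -1.34, -3.11 and -1.72 in light, against -3.30, -3.49 and -3.49 in dark. Its ZT4 array came within 0.19 of ZT12, and the mean difference was 1.37 ± 0.58 (SE). Leaving out ZT12 raised the differences of Dbp to 2.33, of Tef to 0.87 and of Ciart to 1.44.

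On the dark side, Arntl read -0.59, -1.22 and -0.82 at ZT0, ZT4 and ZT8, against 0.34, 0.37 and 1.37 at ZT12, ZT16 and ZT20. The lowest dark-phase array was 0.93 log2 units, or 1.91-fold, above the highest light-phase array. The mean was 2.97-fold higher in dark, with a light-minus-dark difference of -1.57 ± 0.50 (SE). Between ZT8 and the mean of the dark-phase arrays of its scan the difference was -1.52.

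Cry1, the repressor with the latest phase in the core loop, read -4.08, -3.97 and -3.46 in light, against -2.66, -2.24 and -2.06 in dark. The phases were 0.80 apart at their closest, and the mean was 2.85-fold higher in dark (difference -1.51 ± 0.46, SE). When the probes of a gene were averaged, 5 of 23 clock genes had all 9 pairs in one direction (21.7%, against 8.89% of all genes). Dbp was no longer among them.

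**Figure D2:**
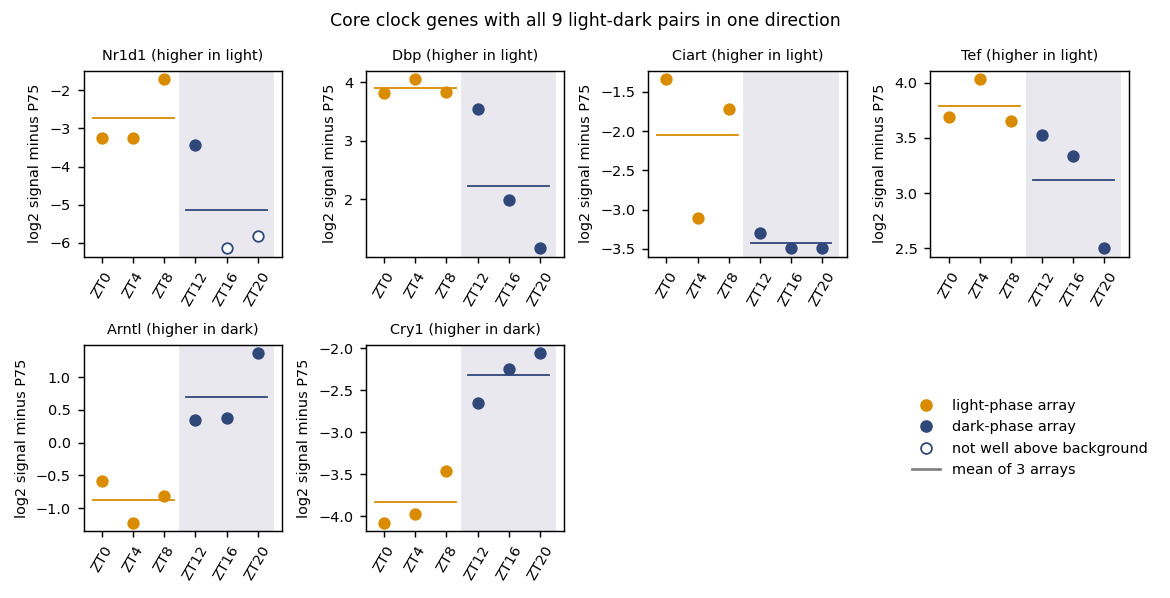
Log2 signal minus the array's 75th percentile (vertical axis) of 6 core clock genes with all 9 pairs in one direction, with light-phase arrays in orange at the left and dark-phase arrays in blue at the right of each panel. Filled points were well above background, open points were not, and the lines mark the mean of 3 arrays. Arntl averaged -0.88 in light and 0.69 in dark, and the values of Nr1d1, Dbp and Tef at ZT12 lie closer to the light-phase arrays than those at ZT16 and ZT20.

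The other 16 measured clock genes had pairs in both directions. Per1 read 3.03, 2.37 and 2.92 in light, against 1.83, 3.77 and 2.94 in dark, and Per2 read -1.56, -5.03 and -0.40, against -1.65, -0.01 and -0.10. These Period genes, which encode the partners of the Cryptochromes, had 4 and 2 of 9 pairs higher in light, and the Per2 value at ZT4 was not well above background. Clock itself read 1.21, -2.81 and -0.16 in light, against -1.28, 0.75 and 0.87 in dark, so that its lowest values fell on ZT4 and ZT12, the arrays with the most lymphocyte marker signal. Nr1d2, the second REV-ERB gene, read 1.93, -1.001 and 1.07, against 0.06, -0.27 and -0.58, and was higher in light in 6 of 9 pairs. Nfil3, which opposes Dbp and Tef at their binding sites, read -0.14, 0.54 and -0.87, against -0.21, 1.16 and 1.97, and had 2 of 9 pairs higher in light. It was highest at ZT16 and ZT20, and ZT12 was the dark-phase array that overlapped the light phase. Without ZT4 and ZT12, 16 of the 23 clock genes had all of the remaining pairs in one direction, but so did 55.4% of all genes.

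Promoter sequences are shown for the 6 genes described above, from the RefSeq promoter table, since the core loop works through E-boxes near the start of transcription. Each line holds the 250 bases before the first annotated start (build GRCm38.p6), read 5′ to 3′ on the strand of the gene, with the E-box CACGTG in capitals, as well as its variant spelled CACGTT, which reads as the letters AACGTG on the opposite strand.
Ciart chr3:95882229-95882478 (-): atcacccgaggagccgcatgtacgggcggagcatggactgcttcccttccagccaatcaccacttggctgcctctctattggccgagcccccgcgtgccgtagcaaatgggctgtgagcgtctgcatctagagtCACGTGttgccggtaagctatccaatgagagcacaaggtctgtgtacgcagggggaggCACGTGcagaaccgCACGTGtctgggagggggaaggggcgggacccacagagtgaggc
Tef chr15:81802423-81802672 (+): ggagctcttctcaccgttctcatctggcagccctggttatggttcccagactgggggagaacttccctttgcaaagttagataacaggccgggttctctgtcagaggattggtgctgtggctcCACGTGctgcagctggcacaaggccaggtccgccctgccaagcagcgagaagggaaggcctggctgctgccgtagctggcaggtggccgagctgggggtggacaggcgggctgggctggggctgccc
Nr1d1 chr11:98775378-98775627 (-): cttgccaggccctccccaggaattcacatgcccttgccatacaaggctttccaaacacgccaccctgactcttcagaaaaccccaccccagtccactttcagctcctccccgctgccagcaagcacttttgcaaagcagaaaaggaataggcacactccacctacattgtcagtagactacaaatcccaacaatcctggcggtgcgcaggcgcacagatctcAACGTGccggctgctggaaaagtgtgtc
Cry1 chr10:85185055-85185304 (-): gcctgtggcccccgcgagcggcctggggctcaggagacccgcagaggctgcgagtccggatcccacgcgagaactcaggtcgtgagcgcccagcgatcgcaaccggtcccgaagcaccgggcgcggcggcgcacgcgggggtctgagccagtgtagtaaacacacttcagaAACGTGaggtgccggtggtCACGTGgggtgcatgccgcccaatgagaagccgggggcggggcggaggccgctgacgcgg
Arntl chr7:113207215-113207464 (+): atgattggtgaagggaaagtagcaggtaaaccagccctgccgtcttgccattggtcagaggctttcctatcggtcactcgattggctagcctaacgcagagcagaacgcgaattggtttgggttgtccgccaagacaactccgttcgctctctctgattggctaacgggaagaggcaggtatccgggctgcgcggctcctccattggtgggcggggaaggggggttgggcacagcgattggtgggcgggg
Dbp chr7:45704997-45705246 (+): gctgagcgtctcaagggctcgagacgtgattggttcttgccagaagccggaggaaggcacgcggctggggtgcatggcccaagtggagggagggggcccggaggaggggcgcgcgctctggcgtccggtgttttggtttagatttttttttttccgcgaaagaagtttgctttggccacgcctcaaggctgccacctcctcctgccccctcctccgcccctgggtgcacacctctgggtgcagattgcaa

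Ciart held 3 copies of CACGTG, starting 116, 58 and 44 bases before its start. Tef held 1 copy, 127 bases before the first start, and another before its second start. Cry1 held CACGTG 60 bases and CACGTT 79 bases before its start, and Nr1d1 held CACGTT at 28 bases. In Arntl and Dbp these letters were not found in the window. Both strands were searched. The D-box letters TTATGTAA or their variant with the letters TTACGTAA, the ROR-element letters TAGGTCA or their variant with the letters TGGGTCA, and the cAMP response element letters TGACGTCA were searched too, and none of them occurred in these 6 windows. Of 32851 promoters in the table, 6.02% held CACGTG and 3.85% held CACGTT. Among genes higher in light in all 9 pairs 6.85% of the promoters found held CACGTG, among genes higher in dark 8.73%, and among all genes tested 7.29%.

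The genes with the widest gap between the phases were on the light side. In 77 genes the lowest light-phase array was at least 2-fold above the highest dark-phase array, and 33 of these had a symbol. No dark-high gene reached that gap. The widest light-side gap among genes with a symbol was that of Pi16, a peptidase inhibitor known as a fibroblast marker. Pi16 read -0.98, 0.10 and -0.62 at ZT0, ZT4 and ZT8, against -2.90, -2.79 and -3.23 at ZT12, ZT16 and ZT20. It was 5.56-fold higher in light, and the closest pair still differed 3.52-fold.

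Igfbp6, which binds insulin-like growth factors, read -0.12, -0.02 and -0.01 in light, against -2.80, -1.58 and -1.83 in dark, and was thus almost level across the light phase. Rhoj, a small GTPase of endothelial cells, read -1.53, -1.16 and -1.24, against -3.12, -3.76 and -3.33. Smoc2, a secreted calcium-binding matrix protein, read 2.15, 1.09 and 1.60, against -0.72, -2.97 and -0.13. By their means these genes were 4.05-fold (Igfbp6), 4.28-fold (Rhoj) and 7.42-fold (Smoc2) higher in light. Their closest pairs differed by 1.46, 1.60 and 1.23 log2 units.

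Krt17, a keratin, read -1.97, -1.10 and -1.75 in light, against -3.37, -3.52 and -3.44 in dark. Mall, a membrane protein of lipid rafts, read -1.18, 0.21 and -0.99, against -3.26, -2.54 and -2.63. Both were highest at ZT4. The 11 measured intestinal epithelium genes also had their highest summed level at ZT4, 544 multiples of the percentile, beside 114 at ZT0 and 67.2 at ZT8 in light, and 29.6 to 189 on the dark-phase arrays, and the part of that in these genes was not tested. St6galnac1, a sialyltransferase of mucins, read -1.80, -0.92 and -2.78, against -4.12, -4.21 and -5.24, but its light-minus-dark difference of 2.69 turned to -1.11 when spots marked as outliers by the scanner software were kept.

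Dcaf12l2 read 4.80, 3.59 and 1.998 log2 units in light, against 0.50, 0.64 and 0.17 in dark, the largest mean difference of the light-side genes with the widest gaps (8.14-fold). Its light-phase arrays were spread widely with ZT0 at the top, while the dark-phase arrays lay close together. Kdm5a, a histone demethylase, read -2.29, -2.62 and -1.89, against -3.96, -4.38 and -5.23, and Fubp1, a single-strand DNA-binding regulator of Myc, read -2.47, -3.47 and -2.68, against -4.93, -4.996 and -4.92. Pramel48 was 4.13-fold higher in light. Speer4cos was higher in light in all 9 pairs and well above background on 1 of the 3 dark-phase arrays, so no fold is given. Both belong to families of near-identical copies, so their reading by single probes is uncertain.

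By limma's own order, the 5 leading genes on the light side were Pi16 and 4 genes that were not well above background on any dark-phase array, for which only a lower bound can be given. These 4 passed the filter of 3 arrays only through the light phase. Their direction and rank therefore carry no support for a difference between the phases. Of all light-high genes 56 were detected in this way, and of the dark-high genes 0 in the opposite way. Tbx22, a T-box transcription factor, averaged -4.03 in light and -7.32 in dark and was at least 2.76-fold higher in light. Mrgprg averaged -3.98 and -7.07, at least 2.86-fold, and Zfp445, a zinc finger protein that acts on imprinted genes, averaged -4.27 and -7.11, at least 2.34-fold. The transcript 4930444G20Rik averaged -4.12 and -6.32, at least 2.59-fold. Tbx22 and Mrgprg lost their all-pairs direction with quantile normalization and with normexp background correction, whereas Zfp445 kept it in both.

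On the dark side Pdk4, the kinase that shuts pyruvate out of the mitochondrial oxidation route, came next after Arntl. It read -1.96, -1.66 and -1.63 at ZT0, ZT4 and ZT8, against -0.80, -0.66 and -0.32 at ZT12, ZT16 and ZT20. The mean was 2.23-fold higher in dark and the closest pair differed 1.77-fold. Its list of fasting and PPAR targets had no other member with all 9 pairs in one direction, 1 of 24 in all.

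Hsph1, a cochaperone of the heat shock response, read 0.92, 0.89 and 2.03 in light, against 2.97, 2.86 and 2.63 in dark. A second probe for Hsph1 also had all 9 pairs higher in dark. Lysmd3 read -3.68, -3.52 and -2.66, against -1.94, -1.69 and -1.03, and the netrin receptor gene Unc5c read -2.93, -3.24 and -2.45, against -1.75, -1.87 and -1.74. In all 3 genes ZT8 was the light-phase array nearest to the dark phase. Parp8, an ADP-ribosyltransferase, had narrow phases, at 1.41, 1.48 and 1.55 against 2.21, 2.10 and 2.12. Zfp974 and Atp7a were also among the 5 leading dark-high genes by limma, 3.49-fold and 4.26-fold higher in dark. Atp7a, a copper transporter, read -0.91, -1.67 and 0.32, against 0.47, 1.82 and 1.73, with ZT8 only 0.15 below ZT12. Celrr, Arrdc5, Olfr94 and Ankrd33b, also among the 12 widest gaps, were 2.10-fold to 2.82-fold higher in dark by their means. Celrr, Arrdc5 and Olfr94 lost their direction with normexp, and a second probe of Ankrd33b had 4 of 9 pairs higher in light.

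**Figure D3:**
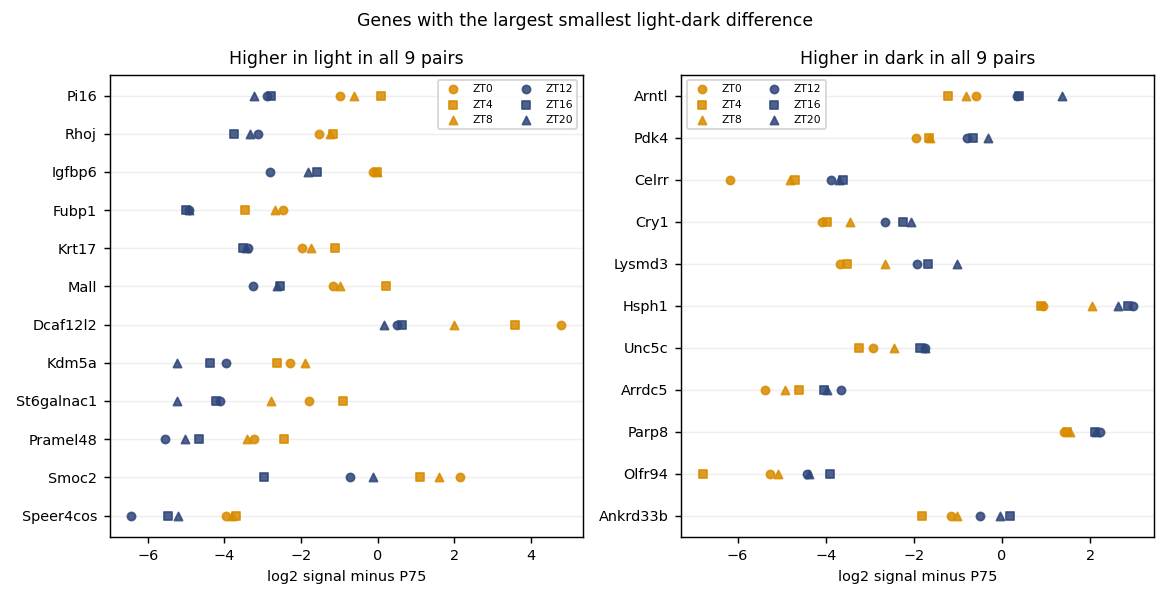
Log2 signal minus the array's 75th percentile (horizontal axis) on each array for genes with a symbol and the widest closest-pair gaps, 12 on the light side (left) and 11 of the 12 on the dark side (right). Orange symbols are light-phase arrays and blue symbols dark-phase arrays. The closest pair of Pi16 differed by 1.81 log2 units and that of Arntl by 0.93.

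Gene lists were read against the background shares of 4.41% for each direction. In the lists for protein folding and secretion, the genes with all 9 pairs in one direction were higher in dark, at 13.3% of heat shock genes and 6.90% of translocation and glycosylation genes, but at 4.00% or less of the other lists. Heat shock genes had 2 of 15, Hsph1 and Chordc1, a chaperone that works with HSP90, and a median difference of -0.31 beside -0.03 over all genes. Under quantile normalization 5 of the 15 were higher in dark in all 9 pairs, beside 6.19% of all genes, and Chordc1 was not one of them. The list median did not separate the phases with the percentile scaling, at 0.44 on ZT4 and -0.34 on ZT20, but under quantile normalization it was lower on each light-phase array (at most -0.06) than on each dark-phase array (at least 0.06), an order that the medians of all genes also had.

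Among 25 genes of the unfolded protein response, 1 was higher in dark in all 9 pairs: Calr (calreticulin, a calcium-binding chaperone of the endoplasmic reticulum), at 1.20, 2.78 and 2.74 against 2.96, 3.67 and 3.46. Hspa5, the main chaperone of that compartment, read 7.61, 6.51 and 5.84 in light, against 5.83, 6.89 and 6.66 in dark, with both phases overlapping. Sec11a, of the signal peptidase, and Stt3b, of the oligosaccharyl transferase, were the 2 of 29 translocation and glycosylation genes with all 9 pairs higher in dark, with light-minus-dark differences of -0.41 and -0.54. The median of that list was -0.41, with 3 of 29 genes at a positive difference. Its median deviations were -0.05, -0.47 and -0.11 in light, against -0.43, 0.62 and 0.53 in dark. ZT12 thus lay below ZT0 and ZT8, and the list median did not separate the phases. Copb1, a coat protein of vesicles that return from the Golgi, read 2.58, 1.77 and 2.33, against 2.99, 4.11 and 3.84, a 2.68-fold higher level in dark. It was the 1 of 31 transport coat genes with all 9 pairs in one direction. Calr, Sec11a and Stt3b, but not Copb1, lost the all-pairs direction under quantile normalization.

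Of 28 exocytosis genes, Rab27a alone had all 9 pairs in one direction. This GTPase, which tethers insulin granules at the plasma membrane, read -2.57, -3.49 and -2.02 in light, against -1.74, -0.65 and 0.06 in dark. It was 3.77-fold higher in dark, with ZT8 and ZT12 0.28 apart. Syt13, the brightest gene of that list with Rab27a set aside, read 6.85, 4.45 and 5.47, against 2.91, 6.47 and 6.09, and its lowest values were on ZT4 and ZT12.

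The fatty acid receptor genes Ffar4 and Ffar3 were higher in dark in all 9 pairs, and the leptin receptor gene Lepr was higher in light, 3 of 25 islet receptor genes. Ffar4, a receptor for long-chain fatty acids, read -2.79, -2.57 and -1.85, against -1.54, -1.37 and -1.35. Ffar3, a receptor for short-chain fatty acids, read -3.10, -1.98 and -1.73, against -1.46, -1.66 and -1.45. In both the dark-phase arrays were nearly level and ZT8 was the closest light-phase array. Lepr read -0.58, -2.60 and -0.66 in light, against -2.96, -4.75 and -4.06 in dark, but its difference of 2.64 turned to -0.25 with outlier spots kept, and its direction was lost with normexp.

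Of 21 islet hormone and granule genes, 0 had all 9 pairs in one direction, and limma gave 0 at an unadjusted p under 0.05. Glucose sensing and excitability genes likewise had 0 of 22. Their medians deviated most at ZT12, by -2.13 for the hormone list and -1.57 for the excitability list, while ZT16 and ZT20 stood above their means in both lists. Among 25 islet transcription factors 1 had all 9 pairs in one direction, Foxa1, a pioneer factor of endoderm, at -1.25, -0.45 and -2.91 against -6.22, -4.83 and -3.44, where the ZT12 value was not well above background.

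The list of lipid synthesis genes had lower medians in light than in dark, as did all genes by a smaller margin. The median deviation of 29 sterol and fatty acid synthesis genes from their own means was -0.18, -0.24 and -0.16 at ZT0, ZT4 and ZT8, against 0.04, 0.28 and 0.49 at ZT12, ZT16 and ZT20. Each light-phase median was below each dark-phase median, also under quantile normalization, where ZT8 and ZT12 were at -0.05 and -0.04, and with normexp. The medians of all genes had the same order, between -0.03 and 0.01 in light and between 0.01 and 0.06 in dark, and kept it under quantile normalization but not with normexp, so the order alone does not set the list apart. The light-minus-dark difference was negative in 24 of the 29 genes, with a median of -0.34, beside -0.03 over all genes, and 2 genes had all 9 pairs higher in dark (6.90%).

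Those 2 were Fasn and Hmgcs1. Fasn, the fatty acid synthase gene, read -3.16, -3.23 and -2.90 in light, against -2.53, -2.26 and -2.12 in dark, a 1.73-fold difference, and lost its direction with normexp. Hmgcs1, which makes the precursor of the mevalonate route, read 2.16, 2.29 and 1.90, against 2.52, 2.48 and 2.65, a 1.35-fold difference. Acly, which supplies acetyl-CoA for this synthesis and was named from the list of glucose-responsive genes, read 7.34, 5.15 and 5.53, against 4.39, 6.62 and 6.29, and overlapped. Hepatocyte genes were also highest at ZT20: their summed level was 560 multiples of the percentile at ZT20, against 4.61 and 50.7 at the other dark-phase hours and 13.2 to 77.5 in light, and its part in the sterol list was not tested.

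In the mitochondrial lists, Ndufs1 and Ndufb5 of complex I were 2 of 48 respiratory chain genes (4.17%), and Suclg1 was 1 of 23 genes of the citric acid cycle (4.35%). Both shares lie near the background of 4.41%. Ndufs1 read 2.36, 2.06 and 2.49, against 2.98, 3.16 and 2.93. Both it and Suclg1 lost their direction under quantile normalization. Suclg1 read 1.38, 1.64 and 2.37, against 2.44, 2.76 and 2.70. Ndufb5 differed by -0.36, and this turned to 0.24 when outlier spots were kept.

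Ribosome biogenesis had 4 of 33 genes higher in dark in all 9 pairs (12.1%) and 0 higher in light. They were Wdr75 and Utp4, of the small subunit processome, and Pes1 and Wdr12, which work in a complex that matures the large subunit. Wdr75 read 0.62, -0.92 and 0.98 in light, against 1.27, 1.24 and 1.19 in dark. Utp4 read -0.06, 1.01 and 0.93, against 1.66, 1.31 and 1.14, and Pes1 read 0.95, 1.67 and 1.25, against 1.75, 2.14 and 2.10. The dark-phase values of Wdr75 were nearly level. Wdr12 lost its direction with normexp. The closest pairs of these genes differed by only 0.05 to 0.22, and the list median did not follow them, at 0.66 on ZT12 but -0.27 and -0.35 on ZT16 and ZT20.

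Cytosolic ribosomal proteins had 0 of 78 genes in all 9 pairs. Their median difference was 0.77 with the percentile scaling but 0.07 with quantile normalization, so no direction can be given. Iars and Tars, the isoleucine and threonine tRNA synthetases, were 2 of 33 translation genes higher in dark. Iars read 1.28, 1.54 and 1.76, against 2.18, 2.41 and 2.60 (1.83-fold). Tars read 3.34, 3.21 and 3.04, against 3.51, 3.79 and 3.65, and lost its direction under quantile normalization.

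Protein turnover lists had few genes in one direction, at shares of 5.88% (proteasome), 2.94% (autophagy) and 2.86% (lysosome) higher in dark, beside 4.41% of all genes. The proteasome lid subunits Psmd12 and Psmd7 were 2 of 34 higher in dark, with light-minus-dark differences of -0.86 and -0.50. Atg3, an enzyme that lipidates autophagy proteins, was 1 of 34 and Atp6v1a, the catalytic subunit of the vacuolar proton pump, 1 of 35 lysosomal genes. Atp6v1a read 2.45, 2.01 and 2.80, against 3.05, 3.73 and 3.67. Atg3, Atp6v1a and Psmd7 lost their direction under quantile normalization, where the autophagy and lysosome lists each had 1 light-high and 0 dark-high genes, and Psmd12 lost it when probes were averaged. The medians of the autophagy list were -0.05, -0.24 and -0.08 in light, against -0.05, 0.09 and 0.05 in dark, and under quantile normalization the phases overlapped, with ZT8 at 0.13 and ZT12 at 0.07.

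Other single members in the dark-high direction were Pde4d and Pde4b, which degrade cAMP, Slc16a1, a lactate carrier normally silenced in beta cells, Foxo3, Nnmt, Hnrnpu and the reference gene Gusb. Their mean differences ranged from -0.34 for Slc16a1 to -1.23 for Foxo3, whose closest pair differed by 0.02. The dark-high shares were 11.8% (cAMP), 6.25% (silenced genes), 4.35% (FOXO targets), 5.88% (NAD), 2.94% (splicing) and 7.69% (reference genes), beside 4.41% of all genes. Differences were positive in 14 of 16 silenced genes, 21 of 34 splicing genes and 9 of 13 reference genes, with medians of 1.01, 0.21 and 0.54. In the cAMP, FOXO target and NAD lists they were positive in 6 of 17, 9 of 23 and 8 of 17. Hnrnpu and Pde4b lost their direction under quantile normalization, and Foxo3 and Nnmt with normexp. Both Pde4d and Pde4b lost it when probes were averaged. A second probe had 4 of 9 pairs higher in light for Pde4d and 6 of 9 for Pde4b. Lists with 0 genes in all 9 pairs included 16 glucocorticoid-responsive genes, 18 amino acid stress genes, 20 glycolysis genes, 26 antioxidant genes, 18 hypoxia genes, 36 cell cycle genes, 22 inflammatory genes and 23 interferon-response genes.

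**Figure D4:**
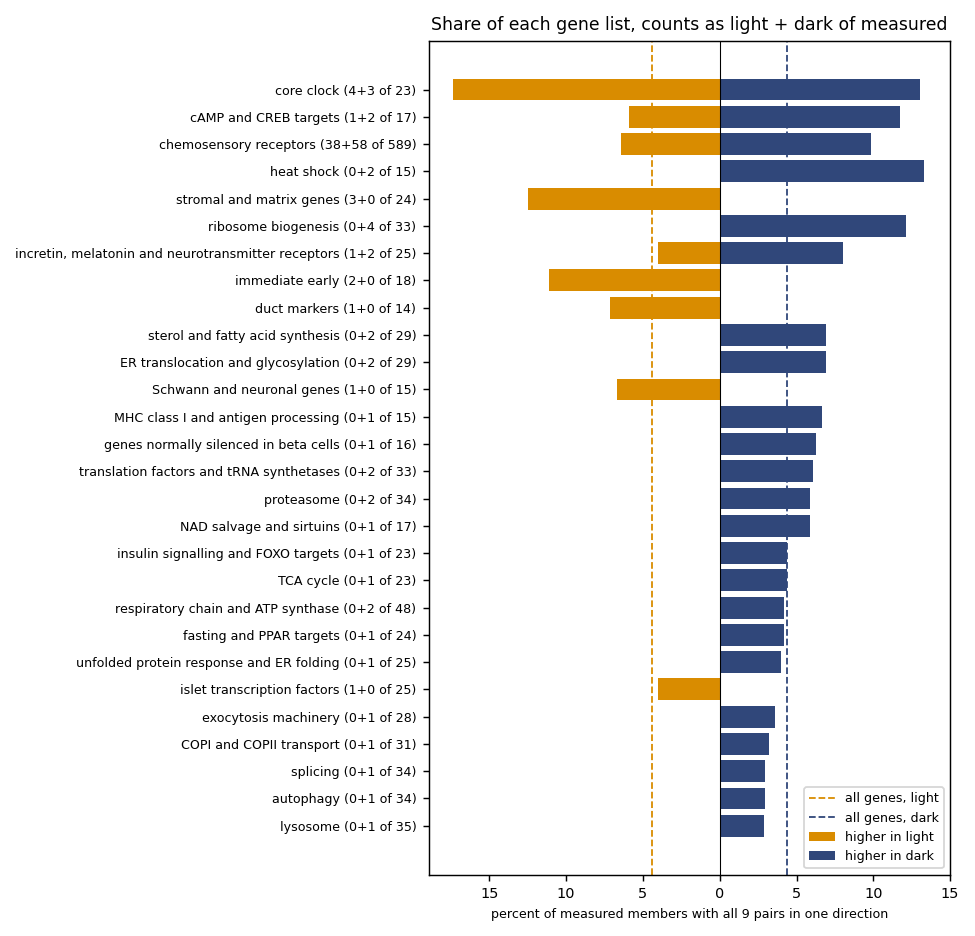
Share of measured members with all 9 pairs higher in light (orange, to the left) and higher in dark (blue, to the right) for every gene list with at least 14 measured members and at least 1 such member. Dashed lines mark the share of all genes, 4.41% on each side. The core clock list has 4 members on the light side and 3 on the dark side of 23.

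Besides clock genes, Foxa1, Lepr and chemosensory receptors, the listed genes higher in light in all 9 pairs were immediate early genes and genes of other cell types. Jun and Nr4a1, transcription factors induced within minutes of a stimulus, were 2 of 18 immediate early genes (11.1%), and Nr4a1 was also the 1 light-high gene among 17 cAMP and CREB targets. Jun read -1.90, -2.33 and -0.46, against -3.27, -3.33 and -2.56, a 2.81-fold higher level in light. Nr4a1 read 3.58, 3.47 and 3.23, against 3.14, 2.82 and 2.79, and lost its direction under quantile normalization. The median deviation of the immediate early list was 0.41, 0.12 and 0.32 in light, against 0.16, -0.41 and -0.35 in dark, so that only the pair of ZT4 and ZT12 ran the other way.

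Stromal and matrix genes had 3 of 24 higher in light in all 9 pairs (12.5%). Col1a1, the main fibrillar collagen chain, read 5.76, 4.75 and 4.71 log2 units in light, against 4.52, 2.62 and 2.60 in dark. Lox, which cross-links collagen, read -1.91, -3.86 and -2.93, against -4.23, -7.41 and -5.87. Sparc, a collagen-binding matrix protein, read 6.45, 6.28 and 5.36, against 5.34, 4.46 and 4.08. In all 3 genes ZT12 was the highest dark-phase array, only 0.02 below ZT8 for Sparc, and Col1a1 lost its all-pairs direction under quantile normalization. The Lox values at ZT16 and ZT20 were not well above background. Sparc lost its direction when probes were averaged, and its second probe had 7 of 9 pairs higher in light. A second probe for Lox, well above background on 3 arrays, had 6 of 9 pairs higher in light and a difference of -0.03.

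The stromal list as a whole had a median difference of 1.22. Its medians were 0.74, 0.37 and 0.48 in light, against 0.70, -1.30 and -1.19 in dark, so ZT12 sat with the light phase. Lmod1, a smooth muscle protein, read -2.43, -3.06 and -2.96, against -3.17, -6.06 and -4.57, and was 1 of 12 smooth muscle genes in all 9 pairs. Its ZT16 reading was at background level, and it lost its direction under quantile normalization. The summed level of the stromal list was 339, 415 and 224 multiples of the percentile in light, against 355, 75.8 and 72.3 in dark. The summed level of lymphocyte markers was likewise high at ZT4 and ZT12 and lowest at ZT16 and ZT20, and the part of either list in Pi16, Smoc2 or Igfbp6 was not tested.

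Immune markers did not separate the phases. Of 16 lymphocyte markers 0 had all 9 pairs in one direction, although their median difference was 2.54, and the same held for 14 macrophage markers, 9 MHC class II genes and 8 GIMAP genes of lymphocytes. Cd52, a lymphocyte surface glycoprotein, read 5.73, 7.54 and 5.14 in light, against 6.43, 1.64 and 1.41 in dark. Cd3e, another of these markers, differed from it, at 3.36, 5.97 and 3.97 in light, against 5.36, 4.635 and 3.365 in dark. It had 4 of 9 pairs higher in light, and its ZT16 value lay above those at ZT0 and ZT8. Acinar genes had 0 of 23. Their summed level was 3511, 3720 and 1585 in light, against 993, 2142 and 2932 in dark.

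Single markers of other cells had all 9 pairs in one direction. Higher in light were 1 of 14 duct markers (7.14%), 1 of 7 red blood cell genes (14.3%) and 1 of 6 mast cell markers (16.7%). Of 13 hepatocyte genes 2 were higher in dark (15.4%). Beside the 4.41% of all genes each way, these shares rest on 1 or 2 genes of short lists. Bicc1, listed with duct genes, read 2.56, 2.88 and 2.71, against 2.22, 2.16 and 2.13, with both phases narrow. The globin gene Hbb-bt read 2.20, 3.81 and 2.26, against 2.12, 1.78 and 1.72. The mast cell protease gene Cma1, also higher in light, was well above background on only 2 light-phase arrays and 1 dark-phase array and lost its direction under quantile normalization and with normexp. In the hepatocyte list Cyp2e1, which oxidises ethanol, read -2.01, -0.76 and -1.69, against 0.01, -0.31 and 3.42, and Apob, the lipoprotein core protein, read -6.31, -5.32 and -4.49, against -4.25, -4.18 and -3.54. A second probe for Cyp2e1 had 3 of 9 pairs higher in light, and Cyp2e1 lost its direction when probes were averaged. Apob lost its direction with normexp. Both were highest at ZT20, the array with the highest summed hepatocyte level.

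**Figure D5:**
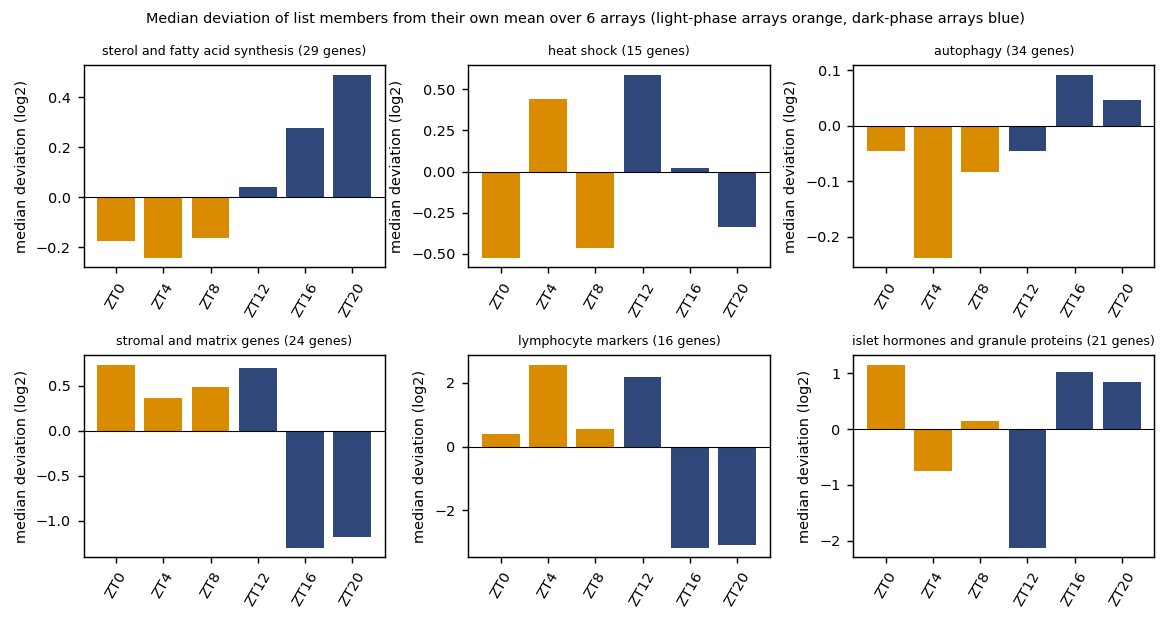
Median deviation of list members from their own mean over the 6 arrays (vertical axis, log2) at each hour, with light-phase arrays in orange and dark-phase arrays in blue. Sterol and fatty acid synthesis genes run from -0.24 to -0.16 in light and from 0.04 to 0.49 in dark, whereas stromal and lymphocyte lists are high at ZT12 as in light, and the hormone list is lowest at ZT12.

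Genes with all 9 pairs in one direction were more frequent among dim genes. In the dimmest of 3 equal groups by mean signal 6.75% were higher in light and 5.77% in dark, in the middle group 5.05% and 4.39%, and in the brightest group 1.44% and 3.06%. Only 44.3% of the light-high genes and 65.8% of the dark-high genes had a symbol, against 69.6% of all genes. Of the light-high genes 59.9% were highest at ZT0 and 60.8% lowest at ZT12, beside 21.5% and 21.1% of all genes. Of the dark-high genes 64.2% were lowest at ZT0 and 42.2% highest at ZT20, beside 23.7% and 15.2% of all genes. The all-pairs rule itself largely confines the highest value to 1 phase and the lowest to the other. These shares therefore exceed those of all genes partly by construction. The 1136 genes of the lists other than chemosensory receptors held 16 light-high (1.41%) and 37 dark-high genes (3.26%), both below the share of all genes.

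Chemosensory receptor genes are best known from sensory neurons of the nose. Of 589 measured, 38 were higher in light (6.45%) and 58 in dark (9.85%), beside 4.41% of all genes each way. Vmn1r256 read -3.21, -2.88 and -3.18, against -5.45, -4.42 and -4.24. Vmn1r148 and Vmn1r104 were 3.05-fold and 2.98-fold higher in light, and Vmn2r16, well above background on 2 of the 3 dark-phase arrays, was 3.14-fold higher. These vomeronasal genes do not stand for the list, in which only 172 of the 589 had a positive light-minus-dark difference. By symbol, 19 of 100 Vmn1r genes were higher in light and 4 in dark, and 8 and 3 of 44 Vmn2r genes. Of 445 olfactory receptor genes (Olfr), 11 were higher in light and 51 in dark. These families hold near-identical copies, so single probes may read several genes. The counts for the whole list depended on the scaling, with 35 light-high and 103 dark-high genes under quantile normalization (4.17% and 6.19% of all genes), and 27 and 12 with normexp (3.7% and 2.4% of all genes).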

How the data were processed

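Per the labels' protocols, total RNA of each pool was labelled with Cy3 by the Quick Amp method and hybridised to a 1-colour Agilent array. Per the submitters' processing notes, the intensity of each spot was extracted with Agilent Feature Extraction 11.0.1.1. The intensity values used here are the processed signals as deposited, with the software's background correction, and a deposited table of the authors' log2 values (30170 probes) served as an alternative. Its column medians lay between 8.62 and 8.63, it ran in the same direction as the scanner values on every array (r of 0.9987 or above across probes, which are not replicates), and its normalization is not given in the sources used here.

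Control spots and spots marked as outliers were left out (1537 probes on at least 1 array), spots of a probe were averaged, log2 was taken and each array's 75th percentile subtracted. Of 39429 probes 69.1% were named through RefSeq accessions (GRCm38.p6). Probes well above background on at least 3 arrays were kept, and the brightest stood for its gene. In the all-pairs count, spots not well above background were raised to the dimmest well-above-background level of their array where they lay under it. Light and dark arrays were compared with limma 3.58.1 in R 4.3.3 (no covariates, Benjamini-Hochberg adjustment), which recovered 200 of 200 genes changed 4-fold in simulated data with an SD of 0.3, with 11 false calls among 24127 genes. Real genes could spread more widely, as Dbp did with an SD of 0.13 in light but 1.21 in dark. The simulation therefore checks the code and does not give the power in these data. The precision is limited by the 6 arrays. Groups were taken from the ZT in the labels. Members, the 55 gene lists and the tests were chosen with earlier results of these data known. Genes named were, in each direction, the 12 with the widest closest-pair gap (well above background on all 3 arrays of the higher phase) and the 5 with the smallest limma p, all measured clock genes, and from each other list up to 4 members in all 9 pairs, filled to 2 by the brightest. A few genes that the rule names are not reported here. Symbol families and Thra were chosen after their values were seen. Alternatives were quantile normalization, the authors' log2 values, normexp (offset 50), 2 detection filters, probe means, outlier spots, leaving out arrays, scan as a block, a lymphocyte covariate and a trended prior.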

Additional observations from a re-analysis of the deposited data

How the results depend on the processing

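The limma count stayed at 0 in all 18 alternatives, while genes at an unadjusted p under 0.05 numbered 784 here, 196 with scan as a block, 1796 with the lymphocyte covariate, 3731 without ZT12 and 3965 without ZT4 and ZT12. All-pairs counts of light-high and dark-high genes were 1005 and 1493 with quantile normalization, 1004 and 1494 in the authors' values, and 893 and 578 with normexp. The light share of the calls was 50.1% with the percentile scaling and 40.2%, 40.2% and 60.7% in these settings. Of the 1065 and 1063 genes, 657 and 369 kept their direction in all 3, and 0 turned. Counts with quantile normalization and in the authors' values were nearly the same, so these hardly count as separate alternatives. Leaving out each array in turn gave 1366 to 4648 light-high, 1365 to 5236 dark-high and 7 to 13 clock genes, with the highest without ZT12 (4648, 5236 and 13). Each leaves 6 pairs, and the cause of the higher counts without ZT12 was not tested. The lowest were 1366 without ZT0, 1365 without ZT20 and, for the clock, 7 without ZT0, ZT8 or ZT20, and counts without ZT4 were 1845 and 2905, without ZT8 2627 and 2733, and without ZT0 1886 dark-high. Without ZT0 and ZT12 there were 6240, 7541 and 17, with scan as a block, which compares ZT8 with the dark phase, 3089, 5404 and 12, and without ZT4 and ZT12, an alternative chosen after seeing the data, 5741, 7620 and 16. In these settings the clock shares were 73.9%, 52.2% and 69.6%, beside 57.1%, 35.2% and 55.4% of all genes. Without ZT12 alone the clock share was 56.5%, beside 41.0% of all genes. Without ZT0, ZT8 or ZT20 it was 30.4%, beside 13.5%, 22.2% and 11.9%. Without ZT4 it was 43.5% beside 19.7%, and without ZT16 34.8% beside 11.8%. With outlier spots kept, St6galnac1 turned to -1.11, Lepr to -0.25 and Ndufb5 to 0.24. Of 2880 combinations of a named gene and an alternative, 60 lost an all-pairs call and 3 reversed. Another 125 gained a call in the direction of their main difference. The remaining 2692 were counted as unchanged, which includes genes that had no call with the percentile scaling. It also includes genes that gained a call against the sign of their main difference, as Timeless did without ZT12. Of 990 list medians, 934 moved by less than the spread between arrays. Much of the 2692 was fixed in advance. Settings that leave out arrays, or compare ZT8 alone, use part of the same pairs and cannot lose an all-pairs call. The covariate and prior settings leave the pairs unchanged, and genes that failed a detection filter were not counted there. No paired analysis was possible because the arrays of the phases share no replicate number in the labels.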

Other observations

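Some groups of genes formed by symbol after the values were seen also had members in all 9 pairs, given here as values. Of 76 mitochondrial ribosomal protein genes 6 were higher in dark (7.89%) and 0 in light, against 4.41% of all genes each way. Mrps33 read 3.10, 3.87 and 3.52 in light, against 3.99, 4.54 and 4.12 in dark, and Mrps2 read -0.67, -0.41 and 0.06, against 0.39, 0.62 and 0.45. Of 32 tRNA synthetase genes 4 were higher in dark and 0 in light: Iars and Tars of the cytosol, and Lars2 and Yars2 of mitochondria. Yars2 read -0.08, -0.89 and -0.12, against 0.31, 0.26 and 0.34, so its dark-phase arrays lay close together. Among 342 zinc finger genes with a Zfp symbol, 20 were higher in dark and 4 in light. Of 35 collagen genes 4 were higher in light and 0 in dark, and besides Col1a1 these were Col5a3, Col8a1 and Col18a1.

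Thra, which encodes a thyroid hormone receptor, lies beside Nr1d1 in the genome, and the ends of these genes overlap on opposite strands. It read 1.62, 1.19 and 1.14 in light, against 0.08, -0.29 and 0.06 in dark. The mean difference was 1.37 ± 0.44 (SE), and the closest pair differed by 1.07, beside a median of 0.33 over all light-high genes. Unlike that of Nr1d1, its ZT12 value was about as low as that at ZT20. Slc2a4, the insulin-responsive glucose carrier of muscle and fat, was also higher in light in all 9 pairs, at -1.48, -0.35 and -1.84 against -2.60, -3.51 and -2.69.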
